A study of Sus scrofa with 36 samples.

Results

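Subcutaneous adipose tissue was studied for 10 genes that type I interferon induces: MX1, SAMHD1, SAMD9, CMPK2, HERC5, USP18, IFI44, IFI44L, IFI35 and TRIM21. They were taken from the deposited expression table by gene symbol, and all 10 were found among the 12253 genes. The table holds 36 pigs of an intercross between Duroc and Göttingen Minipig, 12 lean, 12 intermediate and 12 obese, labelled Low, Mean and High. The study sorted the pigs by a genetic index of obesity, so that a group is a predicted genetic state and not a diet or treatment. Each pig gave 1 RNA-Seq library, and a replicate number below is only the name of a pig. Lean pigs were 7 males and 5 females, and the other groups held 6 of each sex. Full sibs and sequencing lanes could not be assigned to pigs, so that the tests below treat all pigs as independent. The study let a group hold some full sibs, and p-values may then be too small and intervals too narrow. Per the study, the groups also differed in age at slaughter, so that obesity group and age cannot be told apart.

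Interferons are secreted when a cell senses viral nucleic acid or leaked DNA. The type I receptor passes the signal through the kinases JAK1 and TYK2 to transcription factors, IRF9 among them, that bind interferon-stimulated response elements and turn on a wide set of antiviral genes. In fat, adipocytes, endothelial cells, fibroblasts and resident immune cells can all respond. In a bulk library, fewer cells of a type and less RNA per cell cannot be told apart.

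Recovered reads per pig ranged from 8735839 to 11755925. Levels are given as normalized counts, which are the reads of a gene divided by the size factor of the library, and are not corrected for gene length. Differences are on the log2 scale of the deposited values. Of 8 adipocyte markers listed, 5 (PLIN1, PLIN4, LIPE, CIDEC and PPARG) were measured, with summed normalized counts of 25428 to 94111 in every pig. The sum of 2 blood markers, HBB and ALAS2, ran from 186 to 18078. None of the 5 skeletal muscle markers was matched, and these were not analysed here.

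Before the group comparisons, a pair of pigs has to be set apart. Obese replicates 1 and 3, both females, had the 2 highest values of all 36 pigs in 9 of the 10 genes, SAMHD1 being the exception. Over the whole table these pigs were the 2 highest for 210 genes (1.71%). Their libraries were not unusual in depth, with 11001415 and 11357299 reads. Their correlation with each other over all genes was 0.970, at percentile 92.1 of all pairs of pigs, whose r ran from 0.898 to 0.978 around a median of 0.951. Their summed T or NK cell markers were 2374 and 1622, the highest and the third highest of the 36 pigs, against a median of 858 in the obese group. By summed level from the highest, replicates 1 and 3 ranked 24 and 10 in macrophage, 1 and 9 in adipocyte, 33 and 16 in fibroblast or progenitor and 22 and 36 in endothelial markers. The part of these cells in the high values was not tested. The main results below are also given without this pair. Because the pair was picked for high values of these genes, leaving it out lowers the obese values by construction. Values without it describe how far a result rests on these pigs and are no test of a group difference.

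**Figure D1:**
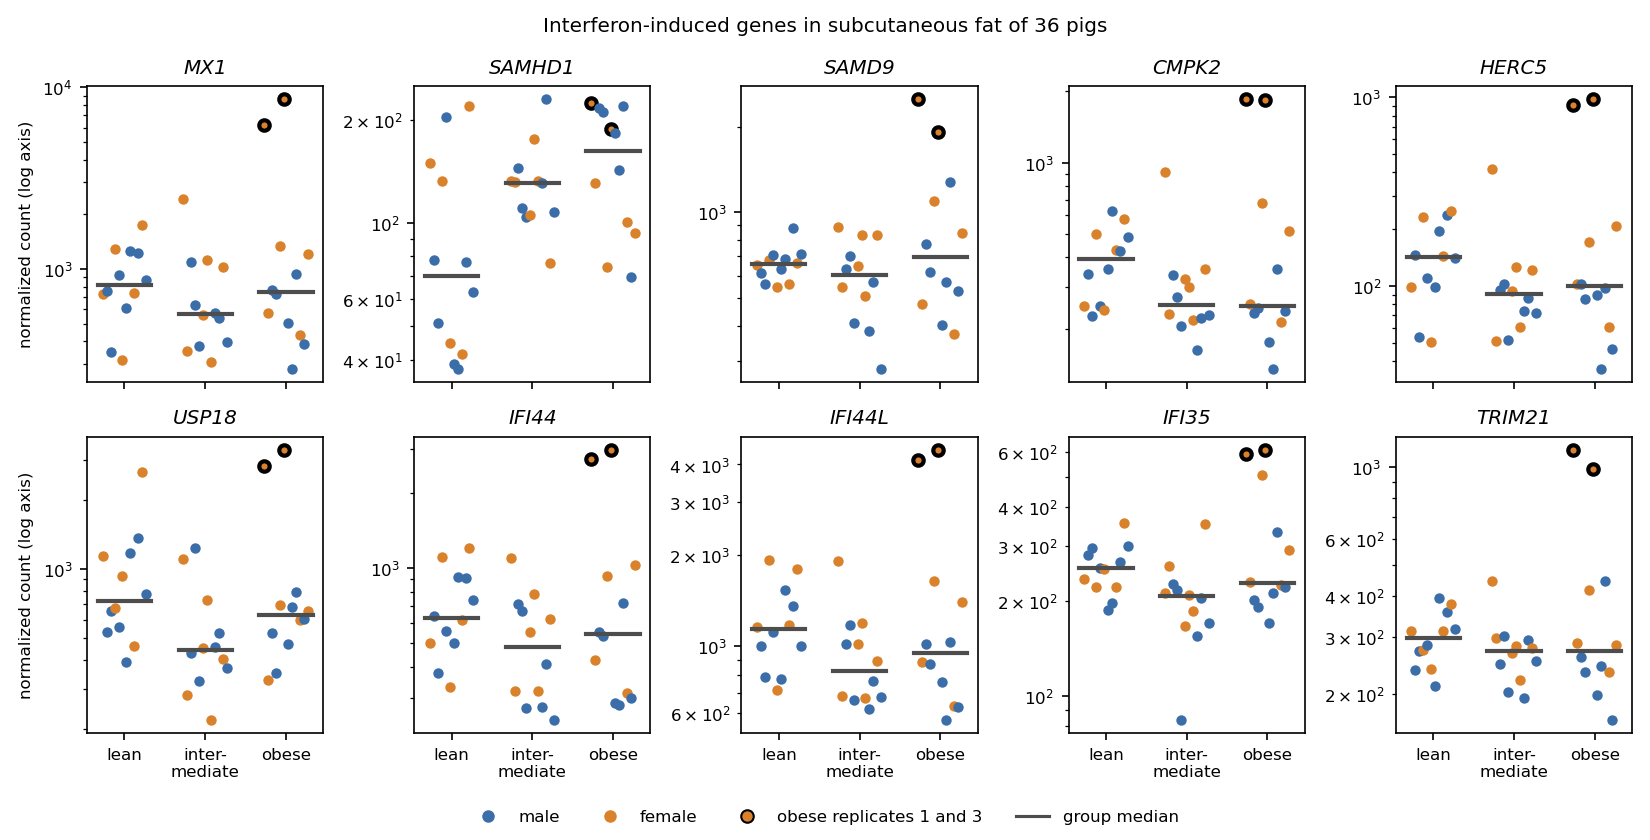
Normalized count of each gene in each pig, on a log axis, by group, with males in blue, females in orange and a bar at the group median. Obese replicates 1 and 3, ringed in black, lie above all other pigs in 9 of the 10 panels, and in MX1 they reach 6164 and 8559 where no other obese pig exceeds 1332.

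MX1 (ENSSSCG00000012077) encodes a dynamin-like GTPase that traps viral ribonucleoproteins. Its normalized count in lean pigs ran from 318 through a median of 815 to 1757, with a mean of 903 ± 418 (SD, n = 12). Intermediate pigs ran from 307 through 566 to 2423, with a mean of 785 ± 593 (SD, n = 12). Obese pigs ran from 283 through 747 to 8559, with a mean of 1823 ± 2656 (SD, n = 12). The groups overlapped widely apart from the 2 ringed pigs, whose 6164 and 8559 lay above every other pig. The obese mean lay above the obese median. The next obese pig, replicate 2, had 1332. In the intermediate group the highest value, 2423, belonged to a female, replicate 1. MX1 had the widest spread of the 10 genes, with the highest pig 30.3 times the lowest and an SD of 1.11 on the log2 scale, above that of 98.4% of all genes.

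CMPK2 (ENSSSCG00000008647), a mitochondrial nucleotide kinase, is a neighbour of the antiviral gene RSAD2 in the RefSeq annotation. Its lean mean was 393 ± 138 (SD, n = 12), with a range of 227 to 626. The intermediate mean was 315 ± 197, with a range of 164 to 911. In obese pigs the mean was 561 ± 616, the median 250 and the highest values 1841 and 1839. The next obese pig had 674, which lay above all lean pigs.

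SAMD9 (ENSSSCG00000027372) restricts poxviruses through its action on translation. Lean pigs lay from 545 to 878, with a mean of 658 ± 91 (SD, n = 12), a coefficient of variation of 13.8%. Intermediate pigs spread from 282 to 886, with a mean of 603 ± 191. Obese pigs spread from 374 to 2489, with a mean of 946 ± 657 and a coefficient of variation of 69.5%. A male, obese replicate 6, had 1274, next after the females with 2489 and 1913.

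HERC5 and USP18 act on ISG15, a ubiquitin-like protein that interferon induces. HERC5 (ENSSSCG00000030548) attaches ISG15 to newly made proteins. Its normalized count was 147 ± 69 (SD, n = 12) in the lean group, 113 ± 99 in the intermediate group and 240 ± 331 in the obese group. The obese values ran from 36.3, the lowest of all pigs, to 907 and 975, with a median of 99.6. USP18 (ENSSSCG00000000774) removes ISG15 and also dampens signalling at the interferon receptor. The lean group averaged 943 ± 618, the intermediate group 544 ± 319 and the obese group 987 ± 988. After the ringed pigs, its highest value was that of a lean female, replicate 8 with 2645, close to the 2834 of obese replicate 1.

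IFI44 (ENSSSCG00000003763) and IFI44L (ENSSSCG00000027660) are paralogs that lie next to each other, with roles that are less well defined. As related genes they may share reads, so that their agreement is uncertain to that extent. The normalized count of IFI44 was 699 ± 279 (SD, n = 12) for the lean, 524 ± 262 for the intermediate and 921 ± 930 for the obese group. That of IFI44L was 1194 ± 393 for the lean, 940 ± 368 for the intermediate and 1502 ± 1346 for the obese group. The obese medians, 544 for IFI44 and 947 for IFI44L, lay below the lean medians of 629 and 1135.

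IFI35 (ENSSSCG00000029763) encodes a leucine zipper protein that binds NMI. Its lean values ran from 188 to 358, with a mean of 257 ± 48 (SD, n = 12). Intermediate values ran from 83.8 to 355, with a mean of 204 ± 65. Obese values ran from 171 to 609, with a mean of 316 ± 160. Obese replicate 2, another female, reached 506 and stood near the 592 and 609 of replicates 1 and 3. The other obese pigs did not exceed 334, which lies within the lean range.

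TRIM21 (ENSSSCG00000014780) is a cytosolic antibody receptor with ubiquitin ligase activity. The lean mean was 299 ± 58 (SD, n = 12), the intermediate mean 274 ± 65 and the obese mean 407 ± 314. The group medians were 298, 273 and 272. Without the values of 1124 and 983 in the 2 ringed females, no obese pig exceeded 446, the level that the highest intermediate pig also had.

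SAMHD1 (ENSSSCG00000027806) removes the nucleotides that retroviruses need to copy their genome, and is abundant in myeloid cells. In this gene the lean group spread widest. The normalized counts of lean replicates 1 to 12 were 150, 204, 44.7, 38.7, 37.6, 41.6, 77.0, 219, 63.1, 78.3, 51.3 and 133, the median being 70.1 and the mean 94.8 ± 65.4 (SD, n = 12). Intermediate pigs ran from 76.3 through 131 to 229, with a mean of 132 ± 40. Obese pigs ran from 69.8 through 162 to 224, with a mean of 154 ± 60. In 6 lean pigs the value lay below that of every intermediate and obese pig, while lean replicates 2 and 8 were among the highest of the obese range. The 2 ringed obese females had 224 and 188, with no gap to the other obese pigs.

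**Figure D2:**
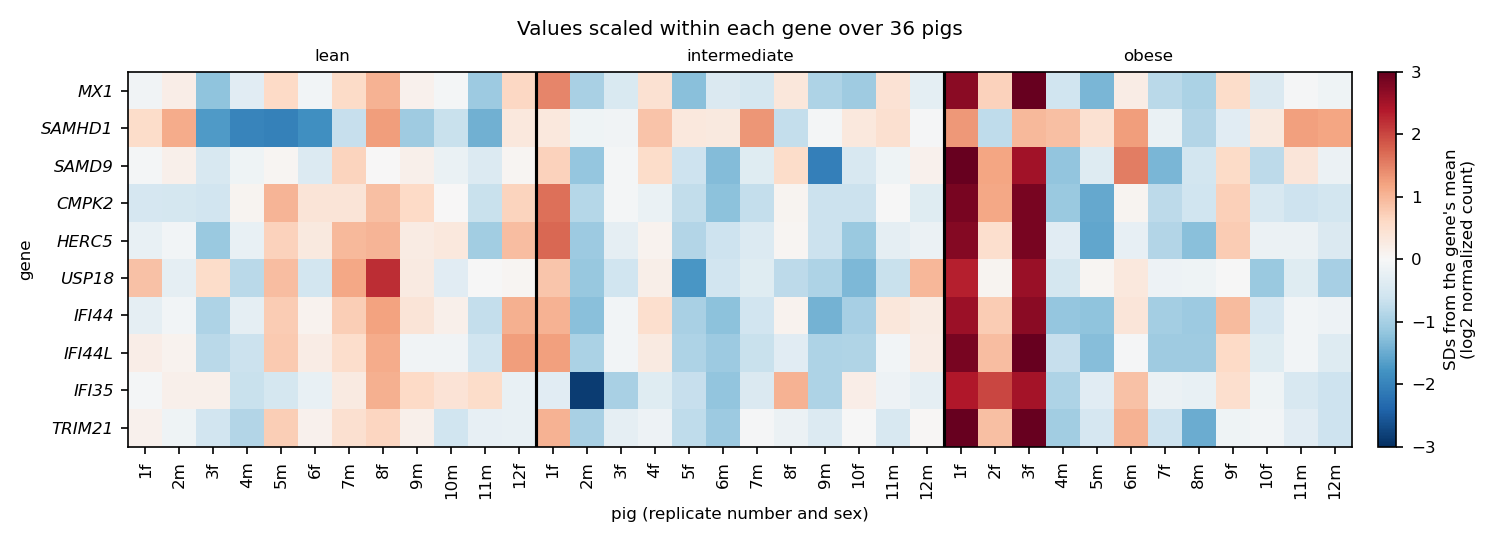
Log2 normalized count of each gene (rows) in each pig (columns, by replicate number and sex), as SDs from that gene's mean over 36 pigs, with colours that end at 3 SDs. Obese replicates 1 and 3 are dark red in 9 rows, while the SAMHD1 row is instead blue in many lean pigs.

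The first question of the design is whether obese pigs differ from lean pigs. In a limma fit of all genes with group and sex as terms, 0 of the 10 genes passed a Benjamini-Hochberg (BH) adjusted p of 0.05, where 5 of all 12253 genes (0.0408%) passed. At an unadjusted p of 0.05, SAMHD1 was the single member, higher in obese pigs, where 6.81% of all genes were higher at that level. Its log2 difference was 0.86 (standard error 0.286, 95% interval 0.28 to 1.44), or 1.81-fold, with p = 0.00491 and a limma adjusted p of 0.134. The difference of SAMHD1 kept this direction without obese replicates 1 and 3, at 0.74 (limma adjusted p = 0.260). By sex it was 1.30 in males and 0.32 in females, and -0.07 in females without that pair. With lean replicate 2 left out it was 0.99 with a limma adjusted p of 0.0446, where calls over all genes rose from 5 to 292 (2.38%). No other alternative run brought a member past the threshold in any comparison.

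For the other 9 genes the obese minus lean differences lay between -0.20 in USP18 and 0.23 in SAMD9. The study describes IFI35 as down-regulated in obese pigs, from a t-test against lean pigs. Here its difference was 0.13 (limma p = 0.501), and the reason for the unlike direction was not tested. Standard errors over the 10 genes were 0.187 to 0.416, so that a difference of MX1 between -0.67 and 1.02 was within its 95% interval. The median over the 10 genes was 0.05, against -0.01 over all genes. The sign of this median rested on the pair of high pigs. Without them it was -0.37, with 9 of 10 genes lower in obese pigs, where 55.7% of all genes were lower. The median over all genes was then -0.02, and the lowest difference was -0.59 in USP18 (p = 0.0427, limma adjusted p = 0.343). The pair was left out for its high values in these genes and no high pigs were left out of the lean group. A fall was therefore fixed in advance, and these values are no test of lower levels in obese pigs.

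SAMHD1 was compared with markers of other cells, and the 3 lists that passed with it by Pearson's r come first. Of 6 measured macrophage markers (CD68, MSR1, CSF1R, CD14, FCER1G and MRC1), 5 were higher in obese than in lean pigs at an unadjusted limma p of 0.05, where 6.81% of all genes were, and 0 passed the adjustment. Without the high pair they were 6 of 6, where 5.66% of all genes were. Their summed normalized counts were 1339 to 7030 in lean pigs (median 2139), 1858 to 6936 in intermediate pigs (median 4529) and 2816 to 6650 in obese pigs (median 5159). CD163 and AIF1 were not analysed here. Over 36 pigs SAMHD1 followed the mean scaled value of these markers with Pearson's r = 0.705 (permutation test, p = 1e-05, the smallest that 100000 resamples can give, BH-adjusted p = 0.001) and Spearman's rho = 0.637 (BH-adjusted p = 0.006). Once lean replicates 4 and 11, whose marker value lay farthest from the median, were left out, r was 0.640. By group r was 0.877 among lean, 0.381 among intermediate and 0.265 among obese pigs, and these values were not tested against each other. The single measured B cell marker, BLNK, had r = 0.604 with SAMHD1 (permutation test, BH-adjusted p = 0.00433) and rho = 0.532 (BH-adjusted p = 0.0530), and its obese minus lean difference was 0.64 (p = 0.00640, limma adjusted p = 0.149). The granulocyte markers CSF3R and S100A8 had r = 0.495 (BH-adjusted p = 0.0204) and rho = 0.398 (BH-adjusted p = 0.284). Their obese minus lean differences were 1.67 (p = 0.00198, limma adjusted p = 0.106) and 0.47 (p = 0.178). When the 2 pigs farthest from the marker median were left out, r was 0.50 with BLNK and 0.43 with the granulocyte markers. By group, r with BLNK was 0.788 among lean, 0.282 among intermediate and 0.176 among obese pigs, and r with the granulocyte markers was 0.624, 0.192 and -0.17. Among lists that did not pass with SAMHD1, 2 of 5 adipocyte markers were also higher in obese than in lean pigs at an unadjusted limma p of 0.05, where 6.81% of all genes were. Without the high pair, 2 of 3 endothelial markers were lower at that level, where 8.01% of all genes were.

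Of 100 relations between the 10 genes and 10 marker lists with measured genes, 13 passed by Pearson's r. Only the relation of SAMHD1 with the macrophage markers passed by both measures. T or NK cell markers (4 measured genes) passed by Pearson's r with 8 members, at 0.515 to 0.650, and with none by Spearman's rho, at 0.07 to 0.38. Without obese replicates 1 and 3 these r were 0.203 to 0.422. Of the 4 T or NK cell markers, 1 (NKG7) was higher in obese than in lean pigs at an unadjusted limma p of 0.05, where 6.81% of all genes were. Its difference was 0.84 (p = 0.00704, limma adjusted p = 0.156), beside 0.81 in CD8A, 0.61 in CD2 and -0.04 in CD247. The median of the 4 was 0.71 with all pigs and 0.39 without the pair. Fibroblast or progenitor markers had a negative r with CMPK2 (-0.49, BH-adjusted p = 0.0252) and IFI35 (-0.46, BH-adjusted p = 0.0374), which was -0.41 and -0.37 without the pair. The part of these cells in the levels of the 10 genes was not tested.

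Intermediate pigs had lower values than lean pigs in 9 of the 10 genes, with SAMHD1 as the exception, where 53.1% of all genes were lower. The median difference of the 10 genes was -0.42, against -0.01 over all genes. The comparison made 0 calls among all genes (0%) after BH adjustment. At an unadjusted p of 0.05, USP18 was lower by 0.82 (standard error 0.335, p = 0.0200) and IFI35 by 0.43 (standard error 0.187, p = 0.0283), where 6.81% of all genes were lower at that level. SAMHD1 was higher by 0.69 (standard error 0.286, p = 0.0209), where 5.71% were higher. The limma adjusted p of these 3 genes lay between 0.322 and 0.355. Obese pigs enter these values through the shared sex term and spread. With obese replicates 1 and 3 left out, USP18 was at -0.79, IFI35 at -0.42 and SAMHD1 at 0.70, and IFI44L also had an unadjusted p below 0.05 (-0.40, p = 0.0365, limma adjusted p = 0.371), where 6.86% of all genes were lower at that level. By sex, with no pig left out, SAMHD1 was at 0.98 in males and 0.31 in females. IFI35 was at -0.58 and -0.22 and USP18 at -0.52 and -1.13 in males and females.

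Obese pigs had higher values than intermediate pigs in 10 of 10 genes, where 51.2% of all genes were higher. The median difference was 0.46, against 0.00 over all genes, and again no gene of the table was called (0%). IFI35 was the single member at an unadjusted p of 0.05, where 2.06% of all genes were higher, with a difference of 0.55 (standard error 0.186, p = 0.00525, limma adjusted p = 0.989). It was rank 34 of all genes by p. Without obese replicates 1 and 3 the median fell to 0.03, against -0.01 over all genes, and 7 of 10 genes were higher, where 46.6% of all genes were. IFI35 then had a difference of 0.36 (p = 0.0433, limma adjusted p = 0.997), where 1.18% of all genes were higher at an unadjusted p of 0.05. This comparison shares the obese pigs with the first and the intermediate pigs with the second, so the directions of the 3 comparisons are not independent. The genes within a comparison are not independent either, since those other than SAMHD1 varied together over pigs (median r 0.840). In every comparison, a count of genes by direction is therefore not a count of separate observations. A linear trend over the ordered groups also called 0 members, where 3 of all genes (0.0245%) passed. Its slope was below 0 in 5 of 10 genes, where 52.5% of all genes were below 0, and without the pair in 9 of 10, where 55.9% were. SAMHD1 had an unadjusted p below 0.05 with all pigs (p = 0.00495), and without the pair so did SAMHD1, CMPK2 and USP18 (p = 0.0166, 0.0497 and 0.0410), with limma adjusted p from 0.236 to 0.348. Positive slopes at that level were found in 6.75% of all genes with all pigs and 5.96% without the pair, and negative slopes in 8.41% without it.

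**Figure D3:**
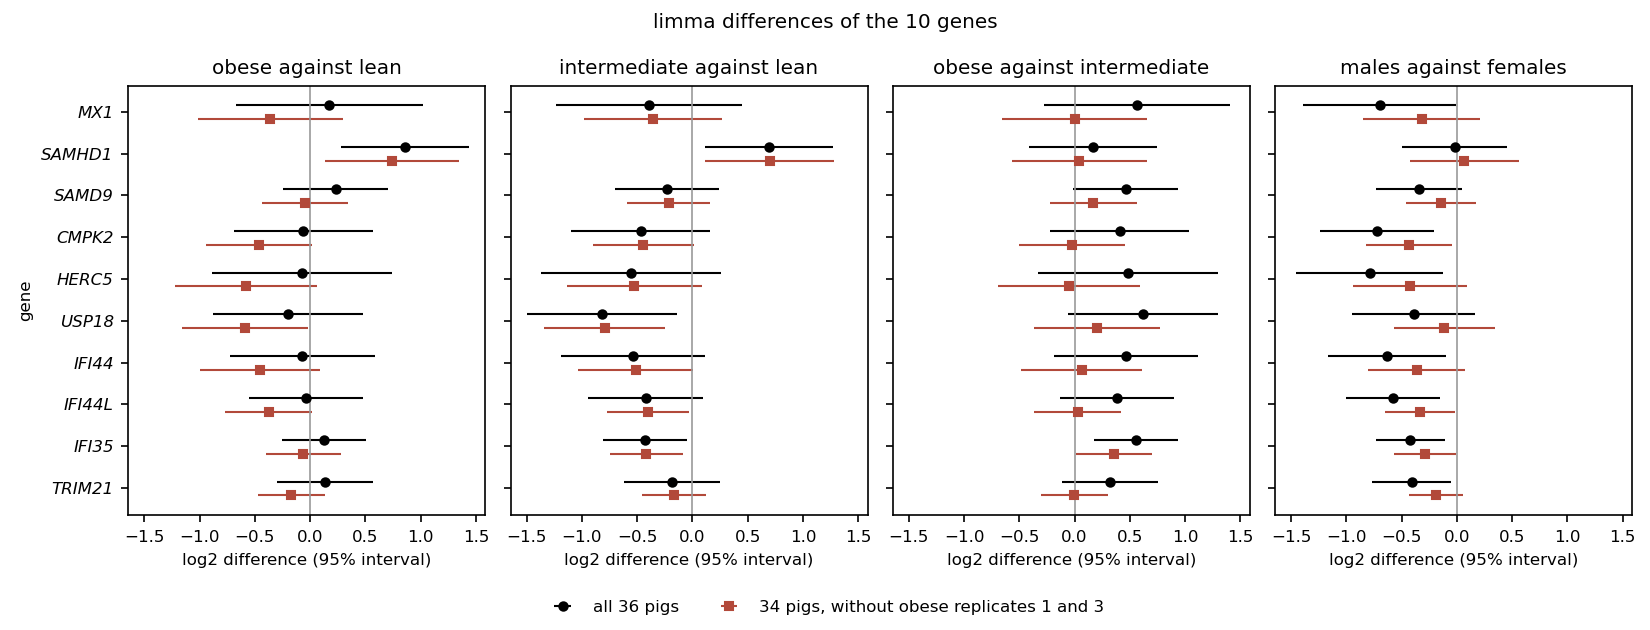
Log2 difference of each gene with its 95% interval from limma, in 4 comparisons, for all 36 pigs (black circles) and for 34 pigs without obese replicates 1 and 3 (red squares). Leaving out the pair moves all 10 genes to the left in the panels that compare obese with lean and with intermediate pigs, SAMHD1 from 0.86 to 0.74 against lean pigs.

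Sex was the other label. All 10 genes were lower in males than in females, where 52.3% of all genes were, with a median of -0.50 against -0.01. No member was called, where 2.19% of all genes were. At an unadjusted p of 0.05, 7 of 10 were lower in males, where 10.3% of all genes were lower at that level. CMPK2 was lower by 0.72 (standard error 0.253, p = 0.00733), HERC5 by 0.79 (standard error 0.328, p = 0.0216) and IFI44L by 0.58 (standard error 0.209, p = 0.00917), and the lowest limma adjusted p was 0.117. SAMHD1, SAMD9 and USP18 did not reach an unadjusted p of 0.05, with SAMHD1 at -0.02. Both high obese pigs are females. Without them the median was -0.30, 9 of 10 genes were lower in males, where 49.8% of all genes were, and 3 of 10 (CMPK2, IFI44L and IFI35) stayed at an unadjusted p of 0.05, where 7.16% of all genes were lower at that level.

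Markers of other cells were compared between the sexes as well. At an unadjusted limma p of 0.05, 3 of 4 T or NK cell markers and 4 of 5 adipocyte markers were lower in males, where 10.3% of all genes were, and 4 of 5 fibroblast or progenitor markers were higher, where 8.01% of all genes were. Without the high pair, adipocyte markers lower in males were 3 of 5 and the other counts were as before. Of the markers, LIPE (limma adjusted p = 0.00534, lower in males) and DCN (limma adjusted p = 0.0222, higher in males) passed with all pigs. The part of these cells in the lower values in males was not tested.

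In males alone the obese minus lean difference was negative in 9 of 10 genes, where 45.3% of all genes were negative, and its median was -0.37 against 0.02 over all genes. In females alone it was positive in 9 of 10, where 40% of all genes were positive, and its median was 0.53 against -0.07. Both high pigs are among the 6 obese females. With them left out, the difference in females was negative in 9 of 10 genes, where 65.8% of all genes were negative, and its median was -0.14 against -0.12. CMPK2 was then at -0.12, HERC5 at -0.23 and SAMHD1 at -0.07. The difference between the sexes was tested as an interaction, and 0 members were called, where 1 of all genes (0.00816%) was. CMPK2 had an interaction of -1.40 (standard error 0.591, p = 0.0240, limma adjusted p = 0.317) and HERC5 of -1.61 (standard error 0.777, p = 0.0454, limma adjusted p = 0.376), where 2.92% of all genes were negative at an unadjusted p of 0.05. Without the pair of high females they were -0.59 (p = 0.229) and -0.59 (p = 0.368). SAMHD1 had the opposite sign, with 0.98 (p = 0.0934), from 1.30 in males and 0.32 in females. Without the pair its interaction was 1.37 (p = 0.0244, limma adjusted p = 0.293).

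The spread within groups was compared by a limma fit on absolute deviations from the group median. The deviation was larger in obese than in lean pigs in 9 of 10 genes, where 41.1% of all genes had a larger deviation, and SAMHD1 was the exception. No member was called, where 1 of all genes (0.00816%) was. SAMD9 (0.45, standard error 0.155, p = 0.00475) and TRIM21 (0.32, standard error 0.141, p = 0.0265) were larger at an unadjusted p of 0.05, where 1.49% of all genes were larger at that level. The limma adjusted p was 0.981 for these 2 genes. Without obese replicates 1 and 3, SAMD9 had 0.34 (p = 0.00925), TRIM21 had 0.07 (p = 0.472) and 7 of 10 genes were larger in obese pigs, where 40.2% of all genes were. In lean pigs SAMD9 had an SD of 0.22 and SAMHD1 of 0.96 on the log2 scale, against 0.91 and 0.66 in obese pigs.

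The 10 genes were then compared with each other over pigs. All 36 pairs among the 9 genes other than SAMHD1 had a BH-adjusted permutation p below 0.05, adjusted over all 45 pairs, with the highest adjusted p at 6.25e-05. Their median r was 0.840 (range 0.639 to 0.966) and their median rho 0.737. The genes were proposed as a family, so that r describes the family and is not evidence for it. The highest r was that of MX1 with HERC5, 0.966, followed by IFI44 with IFI44L, 0.964. The 9 pairs with SAMHD1 had r of 0.04 to 0.31, and none passed (lowest BH-adjusted p = 0.0822).

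Without obese replicates 1 and 3 the same 36 pairs passed, with a median r of 0.677 and a lowest r of 0.377, between HERC5 and IFI35. With the 2 pigs most distant from the median of a pair's first gene left out, which were the same obese pigs in 35 of the 36 pairs, the median r was 0.687. Without replicates 1 and 3, MX1, HERC5, IFI44, IFI44L and CMPK2 had r of 0.849 to 0.940 with each other, and IFI35 and USP18 had values of 0.377 to 0.638 with the members other than SAMHD1. Within groups, 15 pairs passed in lean pigs, 26 in intermediate pigs and 36 in obese pigs. In the obese group without the pair, 24 passed over 10 pigs. In lean pigs r between CMPK2 and IFI35 was -0.05. The difference between groups in r was not tested.

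**Figure D4:**
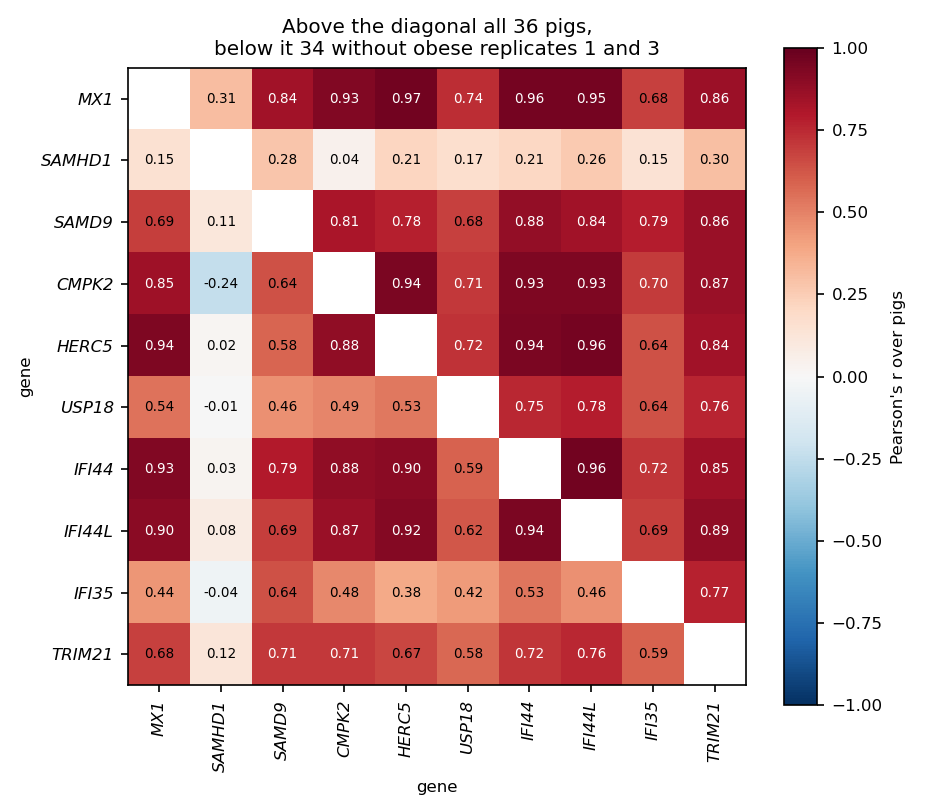
Pearson's r between each pair of genes, above the diagonal over 36 pigs and below it over 34 pigs without obese replicates 1 and 3, from blue at -1 to red at 1. The SAMHD1 row and column stay pale, at 0.04 to 0.31 above the diagonal, and the block of MX1, CMPK2, HERC5, IFI44 and IFI44L stays dark on both sides.

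The genes most like the 10 members were sought in the whole table, by r with the mean of the members' scaled values. Among the first 15 with a symbol were DHX58, RIGI, IRF9, IFIT1, UBE2L6, IFIH1, OAS2, PML, ADAR, RSAD2, ZNFX1, SHISA5, PHF11 and ETV7, and r over the 15 went from 0.970 down to 0.906. They were chosen for this r, so that it is a description with no test. In all 15, obese replicates 1 and 3 were the 2 highest pigs. The choice by r favours this, since in the members' mean they stood at 2.62 and 2.66 and lean replicate 8, the next pig, at 1.00. Without that pair, r was 0.942 for DHX58, a regulator of RNA sensing, and 0.783 for ETV7.

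Nearest genes were also sought for single members. That of MX1 was DHX58 (r = 0.968), that of CMPK2 was its neighbour RSAD2 (0.952), that of HERC5 was MX1 (0.966), that of IFI35 was MOV10 (0.870) and that of TRIM21 was UBE2L6 (0.947). Leaving out the high pair made the nearest gene of CMPK2 one without a symbol (0.907). The nearest genes of IFI44 (0.969) and USP18 (0.801) were the same gene without a symbol, ENSSSCG00000017887. The nearest gene of SAMHD1 had no symbol either (ENSSSCG00000029531, r = 0.935), and the nearest with a symbol was APBB1IP (0.851), which encodes a partner of the GTPase Rap1 in integrin activation of blood cells. The mean of the members had r = 0.343 with SAMHD1.

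The rest of the interferon pathway was read from lists of its parts, of which 0 genes passed the BH adjustment between obese and lean pigs. Among receptors and kinases, 4 of 9 were measured (IFNGR1, JAK1, JAK2 and TYK2), and obese replicates 1 and 3 were the 2 highest pigs in 0 of 4. JAK2 had the largest obese minus lean difference, 0.39 (p = 0.0131), and TYK2 had -0.15 (p = 0.0120). The median r of these genes with the mean of the members was 0.137.

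Among transcription factors, 8 of 10 were measured, and the pair was highest in 4, among them STAT2, IRF2 and IRF9. The largest obese minus lean differences were those of IRF5, 0.79 (p = 0.00517, limma adjusted p = 0.136), IRF1, 0.54 (p = 0.0957), and STAT2, 0.50 (p = 0.00944). At an unadjusted limma p of 0.05, 3 of the 8 were higher in obese pigs, where 6.81% of all genes were. Without the pair it was 1 of 8, where 5.66% of all genes were, and the median of this list fell from 0.29 to 0.15. Of the sensors and adaptors of viral nucleic acid, 12 of 15 were measured and the pair was highest in 7. OAS2, which makes the activator of RNase L, reached 9880 and 11575 in obese replicates 1 and 3 against a median of 923 over all pigs. TLR7 (1.13, p = 0.00140, limma adjusted p = 0.0946) and TLR8 (0.90, p = 0.0185), endosomal receptors found in myeloid cells, had the largest obese minus lean differences, and MAVS, the adaptor that RIGI and IFIH1 share, had 0.01. The median of the sensors and adaptors was 0.11 with all pigs and -0.21 without the pair.

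Of 46 other induced genes, 22 were measured and the pair was highest in 18. The largest obese minus lean differences were those of IFI30 (0.57, p = 0.0190), NMI (0.50, p = 0.0610) and GBP2 (0.44, p = 0.146), and the median of the list was 0.15. Without the pair that median was -0.15. At an unadjusted p of 0.05, 17 of these 22 were lower in males than in females with all pigs, where 10.3% of all genes were, and 14 of 22 without the pair, where 7.16% were. Of these, IFIT2 (-0.82, limma adjusted p = 0.0439) passed the adjustment with all pigs. Of 5 brakes on the pathway, 4 were measured. The pair was highest in SOCS1 alone, and PTPN6, a phosphatase of blood cells, had the largest obese minus lean difference, 0.65 (p = 0.00406, limma adjusted p = 0.129). The median of the brakes was 0.12 with all pigs and 0.01 without the pair.

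Connectivity was computed in lean and in obese pigs, as the study's network comparison does. It is the sum of |r| to the power 9 of a gene with 8745 genes whose SD exceeds 0.25, divided by the highest sum in the same group. It is a value with no test. The difference, obese minus lean, was above 0.6 in 96 genes (1.1%) and below -0.6 in 89 genes (1.02%). IFI35 was the only member above, with 0.125 in lean and 0.735 in obese pigs, a difference of 0.61. SAMHD1 was the only member below, with 0.948 in lean and 0.203 in obese pigs, a difference of -0.74. Its lean value exceeded that of 99.9% of the genes. The other 8 members had differences of 0.19 in USP18 to 0.53 in CMPK2. By this measure and cut, the study had already named IFI35 as a hub in obese pigs and SAMHD1 as a hub in lean pigs. The values of both genes here repeat that result on the same pigs and are not independent of it.

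Leaving out 1 pig at a time moved the difference of IFI35 between 0.37, without obese replicate 1, and 0.72, and that of SAMHD1 between -0.81 and -0.54. Without obese replicates 1 and 3 both, the obese connectivity of IFI35 was 0.418 and its difference 0.29. The difference of SAMHD1 was then -0.47. For the 8 other members the obese connectivity fell to 0.06 to 0.29 without the pair, close to their lean values of 0.06 to 0.19.

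**Figure D5:**
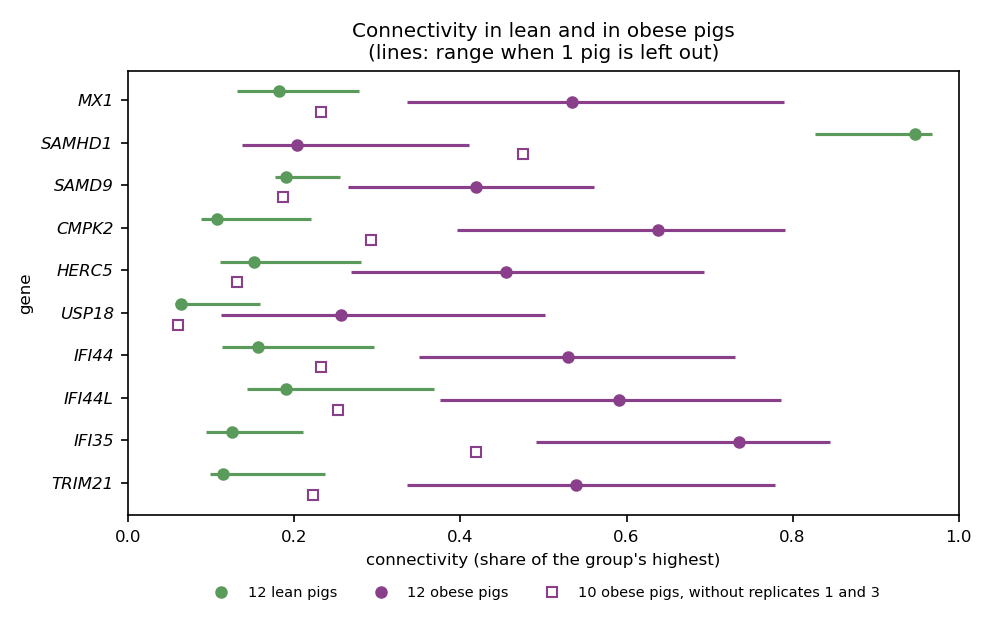
Connectivity of each gene in 12 lean pigs (green) and 12 obese pigs (purple), as a share of the highest in the group, with lines for the range when 1 pig is left out and open squares for 10 obese pigs without replicates 1 and 3. SAMHD1 is the only gene with a higher value in lean pigs, and IFI35 moves from 0.735 to 0.418 when the pair is left out.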

How the data were processed

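Total RNA of subcutaneous adipose tissue was sequenced by the authors from poly-A libraries as paired-end reads. The authors aligned the reads with STAR (Sscrofa10.2), obtained gene counts with HTSeq, dropped lowly expressed genes and normalized with DESeq size factors and limma voom. The deposited log2 values equal, by their steps, the log2 of reads plus 0.5 over size factor plus 1, times 1000000, so that depth is only partly removed. Whole reads were recovered (99.9% of values within 0.1 of a whole number) and divided by the size factor to give normalized counts. Lowest values were 6 or 7 reads per pig. The study states a correction for gender, but the deposited values step in whole reads and 268 genes differed between sexes, so that sex was kept as a term.

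Symbols came from a table of gene IDs (8320 genes matched), and neighbouring genes from the RefSeq annotation of Sscrofa11.1, which differs from the build of the files. All genes were fitted with limma 3.58.1 in R 4.3.3 (intensity trend, group and sex, BH over all genes). Correlations used two-sided permutation with 100000 resamples. Other steps used Python 3.11.15, numpy 2.4.6, pandas 2.3.3 and scipy 1.17.1. The tests were tested on simulated data. The 10 genes and all lists were chosen with earlier results of these data known. Named genes were the members, up to 3 genes per list with the largest obese minus lean difference, and the genes of most similar pattern. LIPE, DCN, IFIT2, OAS2, MAVS, BLNK, CSF3R, S100A8, NKG7 and the names that lists are spelled out with were added after values were seen. Leaving out obese replicates 1 and 3 was chosen after seeing the data. The authors' tables of comparisons were not used. Sequences and genome coordinates were not used here, and 1 gene among the lists and nearest genes is not reported here.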

Additional observations from a re-analysis of the deposited data

Results flagged for a closer look

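Within groups of 1 sex (5 to 7 pigs), each gene's highest and lowest log2 value was compared with its neighbour by Dixon's gap ratio. Of 60 such groups 3 exceeded the 95% critical value, about the 1 in 20 that chance gives. In intermediate females CMPK2 was far above the others in replicate 1 (gap ratio 0.658, normalized count 911). In lean females IFI35 was far above the others in replicate 8 (0.712, normalized count 358). In intermediate males IFI35 was far below the others in replicate 2 (0.679, normalized count 83.8). Obese replicates 1 and 3 did not exceed it among the 6 obese females because each is the nearest neighbour of the other.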

How the results depend on the processing

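For the 7 limma comparisons, 0 members were called under each alternative run, except that without lean replicate 2 SAMHD1 was called between obese and lean pigs (0 to 1 members over all pigs left out in turn). Calls over all genes were less stable. Between obese and lean pigs they ran from 1 to 292 (without lean replicate 2) with 1 pig left out, against 5, and were 204 without lean replicate 8; for the trend they ran from 1 to 274 (without lean replicate 2), for sex from 147 (without obese replicate 1) to 546 (without lean replicate 1) and for the interaction from 0 to 33 (without lean replicate 2). Between obese and lean pigs they were also 17 with that pair of groups alone, 12 without the intensity trend, 9 with the median of each pig subtracted or with the whole size factor, 3 without the sex term, 1 with the lowest 25% of genes removed, 2 in males and 21 in females (7 without both high pigs). Without both high pigs 90 genes were called between sexes, against 268. Between sexes, 5 to 8 members had an unadjusted p below 0.05 with 1 pig left out, and for the interaction 0 (without obese replicate 1) to 8 (without obese replicate 7).

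Several obese minus lean differences changed sign, most of them near 0 with all pigs. SAMHD1, at 0.86 with all pigs, did so in females without both high pigs. In males alone they were -0.50 in MX1, -0.043 in SAMD9, -0.19 in IFI35 and -0.22 in TRIM21. In females alone they were 0.69 in CMPK2, 0.79 in HERC5, 0.52 in IFI44 and 0.35 in IFI44L, but without both high pigs -0.12, -0.23, -0.27 and -0.36, with -0.16 in MX1, -0.072 in SAMHD1, -0.056 in SAMD9 and -0.10 in TRIM21. Without obese replicates 1 and 3 together they were -0.36 in MX1, -0.044 in SAMD9, -0.060 in IFI35 and -0.17 in TRIM21. With voom weights they were 0.0039 in CMPK2 and 0.075 in HERC5, and without the sex term 0.012 in IFI44L. With 1 pig left out the ranges were -0.081 to 0.32 in MX1, -0.24 to 0.058 in CMPK2, -0.30 to 0.076 in HERC5, -0.24 to 0.065 in IFI44, -0.19 to 0.082 in IFI44L and -0.0036 to 0.22 in TRIM21. The difference of SAMHD1 between sexes ran from -0.094 to 0.091 and was 0.067 without both high pigs. The cause of these changes was not tested.

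Of the 45 pairs, 15 were called in lean pigs alone, 26 in intermediate pigs alone and 36 in obese pigs alone, each over 12 pigs. The number of members with a connectivity difference past 0.6 was 2, and it was 1 with the power 7, with residuals after sex, with all genes and with the whole size factor, 0 in a signed network and 0 without obese replicates 1 and 3. It was 1 to 4 with 1 pig left out. No paired analysis was possible because no labels link pigs across groups. The lowest reads in any pig were 34 in SAMHD1 and 36 in HERC5, which limits the precision of both.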
